A study of Rattus norvegicus with 60 samples.

Results

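Captured methylated DNA of the hippocampal CA1 area was compared between threat and place rats 1 h after training, over 350378 bins of 500 nt out of 5805170 in the genome (6.04%). A bin was a member when the mean of its 10 captured 1 h libraries reached 1 RPKM (reads per kilobase of bin, scaled to library size) and was at least 2 times the mean of the input libraries, which were sequenced without capture. The threat group held 3 captured libraries and the place group 4. The naive group at the same time held 3 captured libraries, and 3 input libraries served as background. All came from Sprague-Dawley rats, an outbred stock, of 90 to 120 d. Neither a genotype nor an agent is given for any group, nor what place and threat rats met beyond training in contextual threat recognition. The series holds 60 samples, with RNA and a 24 h time beside these. The labels do not say whether replicates come from different animals. The tests therefore weigh differences against the spread of libraries, part of which may be technical.

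In capture sequencing, genomic DNA is sheared and fragments that carry methylated cytosines, in mammals mostly at CG pairs, are pulled down with a methyl-binding domain protein. The read count of a bin rises with its methylation and with its number of CG pairs, so a level in a bin is an enrichment and not a percent of methylated molecules. Cytosine methylation is laid down by DNA methyltransferases and can be removed through oxidation by Tet enzymes. In hippocampal CA1, a region required for memory of contexts, it has been studied at genes such as Bdnf and Reln after threat training. In bulk tissue a change in cell types and a change of methylation within cells cannot be told apart.

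The captured 1 h libraries held 31.4 to 35.7 M reads each, 1 read was worth 0.0448 to 0.0508 RPKM, and tested bins held a median of 31 to 41 reads per library. Input RPKM in the tested bins had a median of 0.456 over bins, against 1.67 for the captured mean. The CA1 marker Wfs1 was present in the RNA of separate samples of the same conditions, at 100.1 ± 28.1 FPKM in threat (SD, n = 8) and 127 ± 32.3 in place (SD, n = 6), and 12 of 13 CA1 pyramidal markers reached 1 FPKM in both groups. Markers of the choroid plexus, a tissue next to the hippocampus, reached a group mean of 1 FPKM in 10 of 11 cases in threat RNA and in 2 of 11 in place RNA. Threat libraries varied widely in these genes. Folr1 was at 9.97 ± 17.7 FPKM in threat (SD, n = 8), and Ttr ran from 7.14 to 6225.5 FPKM there and from 1.79 to 60.2 in place. How much choroid plexus the DNA samples held was not tested.

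Only a start site can be shown as sequence here, since the bins lie in the rat build rn5 and no genome of that build was used. The start of Tmem39b, a membrane protein gene on chromosome 5, is given because the bin over it and the next one inside the gene were called in values as deposited. Beside it stand the starts of Enpep, an aminopeptidase, and Kcnk16, a background potassium channel, whose windows had some of the lowest p-values without passing the threshold. Each run is the 250 bases before the RefSeq start in the build GRCr8, 5′ to 3′, with CG pairs in capitals. Tmem39b lies at chr5:147330896-147331145 on the minus strand, Enpep at chr2:220526219-220526468 on the minus strand and Kcnk16 at chr15:4091441-4091690 on the plus strand.
Tmem39b: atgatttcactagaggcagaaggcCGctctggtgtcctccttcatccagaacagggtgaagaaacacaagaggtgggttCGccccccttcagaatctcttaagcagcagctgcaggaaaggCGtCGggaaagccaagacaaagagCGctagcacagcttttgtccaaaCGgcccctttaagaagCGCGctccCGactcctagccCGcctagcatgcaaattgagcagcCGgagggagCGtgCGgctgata
Enpep: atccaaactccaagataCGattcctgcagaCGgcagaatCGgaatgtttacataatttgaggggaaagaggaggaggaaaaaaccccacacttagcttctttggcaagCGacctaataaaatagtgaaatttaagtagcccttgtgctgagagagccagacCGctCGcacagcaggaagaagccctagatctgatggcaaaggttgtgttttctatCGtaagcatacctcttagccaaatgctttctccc
Kcnk16: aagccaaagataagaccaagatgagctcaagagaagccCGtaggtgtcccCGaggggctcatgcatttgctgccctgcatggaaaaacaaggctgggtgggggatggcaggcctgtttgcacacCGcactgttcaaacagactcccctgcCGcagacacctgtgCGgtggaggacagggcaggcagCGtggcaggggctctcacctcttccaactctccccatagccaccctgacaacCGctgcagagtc
Tmem39b held 13 CG pairs in this stretch, and 31.8% of 27457 RefSeq promoters of the same length held at least as many. Enpep and Kcnk16 each held 7, a number reached by 47.5% of promoters. CG reads the same on both strands, so each pair was counted once.

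More of the captured reads fell in the tested bins in threat than in place libraries, but the groups overlapped. The share was 55.3%, 54.3% and 47.6% in the threat libraries. In the place libraries it was 46.7%, 41.8%, 45.0% and 52.4%. Place 4 lay above threat 3, and the naive libraries, at 42.8%, 45.1% and 47.5%, covered the lower part of the same range. The mean was 52.4% ± 4.17 in threat (SD, n = 3) and 46.5% ± 4.44 in place (SD, n = 4), a difference of 5.89 percentage points with a 2-sided exact permutation p = 0.114. With 3 against 4 libraries such a test cannot go below 0.0571. Input libraries held 11.7% to 12.3% of their reads in these bins. Bins without a single read made up 49.9% ± 2.19 of the genome's bins in threat (SD, n = 3) and 43.5% ± 4.68 in place (SD, n = 4; exact permutation p = 0.114).

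**Figure D1:**
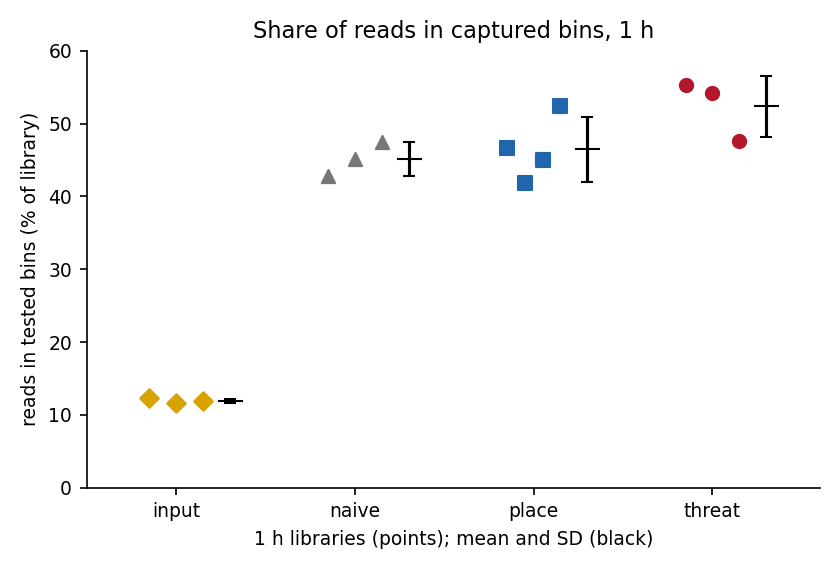
Share of each 1 h library's reads that fell in the 350378 tested bins (vertical axis, percent), for input, naive, place and threat libraries (points), with the mean and SD of each group in black. Input libraries sit near 12%, while threat libraries at 47.6% to 55.3% overlap place libraries at 41.8% to 52.4%.

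Most bins lay above zero in values as deposited. The median difference over all tested bins, threat minus place on the log2(RPKM + 0.25) scale, was 0.13. Median-ratio scaling divides each library by its median ratio to a reference library over the tested bins. It brought the median to 0.00, with factors of 1.15, 1.13 and 1.00 for threat libraries and 0.991, 0.895, 0.958 and 1.11 for place libraries. Each result is therefore given on both scales. Medians by chromosome ran from 0.12 on chromosome 17 to 0.17 on X as deposited.

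The difference grew with the level of the bin, and scaling did not flatten it. Bins of 1 to 1.5 RPKM had a median difference of 0.07 as deposited and -0.05 after scaling. In bins of 3 to 5 RPKM the medians were 0.21 and 0.07, and in the 3052 bins of 10 RPKM and over they were 0.27 and 0.12. In that highest class the library medians were 16.2, 16.3 and 13.7 RPKM in threat and 12.9, 11.4, 12.6 and 14.01 in place, so place 4 stood above threat 3 there too. In bins of 1 to 1.5 RPKM the library medians of threat, 1.31, 1.29 and 1.19 RPKM, lay within or just above those of place, 1.18, 1.10, 1.17 and 1.30. The 3698 bins just inside the level threshold, less than 1% above it, had a median of 0.05 as deposited and -0.07 after scaling, and the 1667 bins just inside the input threshold had 0.02 and -0.10.

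**Figure D2:**
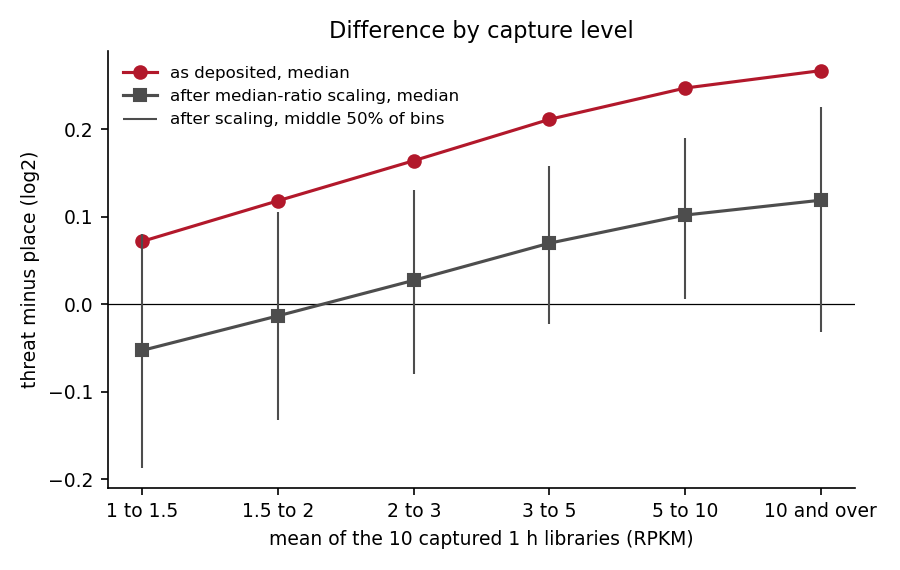
Median difference of threat minus place (vertical axis, log2) in 6 classes of bins by mean captured level (horizontal axis, RPKM), as deposited (red) and after median-ratio scaling (grey, with lines over the middle 50% of bins). The medians rise from 0.07 to 0.27 as deposited and from -0.05 to 0.12 after scaling.

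Few single bins passed the test in this comparison of threat with place. In a limma fit of all 10 captured 1 h libraries with Benjamini-Hochberg adjustment at 0.05, 58 bins were higher in threat (0.0166% of the bins tested) and 3 were lower (0.000856%) as deposited, 61 in all (0.0174%). After scaling 9 were higher (0.00257%) and 3 lower (0.000856%), 12 in all (0.00342%). The 2 fits shared 10 calls and called 63 bins between them, in 42 runs of bins less than 1 kb apart. Bins in which every threat library lay above every place library made up 6.19% of all tested bins as deposited and 3.49% after scaling. The reverse held for 0.872% and 3.13%. Of the 61 bins called as deposited 44 showed such separation, and of the 12 called after scaling 11 did. Counting methods gave other totals: edgeR on reads recovered from the RPKM values called 136 bins with library totals and 38 with TMM scaling, and DESeq2 called 4. Single libraries moved the counts as well. As deposited, 456 bins passed without threat 3, 444 without place 4, 186 without place 3, 35 without threat 2 and 27 without threat 1. After scaling, 349 passed without threat 3, 84 without place 3 and 31 without place 4.

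The called bins differed from the tested bins at large in level and input. The 58 higher bins had a median captured level of 6.51 RPKM against 1.67 over all tested bins, and a median input of 1.91 RPKM against 0.456. Input above 1 RPKM was found in 41 of them (70.7%), but in 5.69% of all tested bins. Genes held 29 of the 58 (50%) and 42.4% of all tested bins, and 6 lay within 1 kb of a gene start, where 2.00% of tested bins lay. These 6 were adjacent bins at the starts of ENSRNOG00000047746, ENSRNOG00000049138 and Tmem39b only, and none of them was called after scaling. None of the called bins was on the X chromosome, which held 1.54% of the bins tested. Naive libraries, which also counted in the rule that chose the bins, stood nearer to threat in 35 of the 58 bins and nearer to place in 23. Bins of 1 place were counted singly here, and 16 of the 58 lay in 1 place on chromosome 14. Called bins there averaged 14.9, 16.2 and 15.6 RPKM in naive libraries, and 7.04, 8.87, 12.4 and 9.87 in place, with naive nearer to threat in each. It is 1 of 4 places with high input, described below, that held 24 called bins. In the others naive means also lay above every place mean, at 13.4 to 14.8 against 7.29 to 11.4 RPKM on chromosome 1. They were 17.3 to 18.9 against 8.52 to 13.97 on chromosome 5 and 10.3 to 11.8 against 6.54 to 8.02 on chromosome 19. The count of 35 therefore leans on few places. In 26 of the 63 bins called on either scale every threat library was above every place and naive library, as in 3.56% of all tested bins, and in 2 every threat library was below them, as in 0.244%. Some bins met the member rule only through the group in which they were high, and so had to differ to be tested. This held for 8 of the 58 higher bins, which failed the rule on place and naive libraries alone (as did 4.19% of all tested bins), and for 2 of the 3 lower bins, which failed it on threat and naive libraries alone (2.88%). Where the 1 h fit was restricted to bins with an input of at most 1 RPKM, an alternative chosen after seeing the data, 21 bins were higher and 6 lower as deposited, and 6 and 4 after scaling.

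Wdr64, a gene of the WD-repeat family on chromosome 13 (rn5, 98216253 to 98337829, plus strand), held the largest differences. In the bin chr13:98219501-98220000, inside the gene and centred 3498 nt from its start, the threat libraries read 4.07, 5.32 and 4.68 RPKM. Place libraries read 0.407, 1.75, 0.632 and 0.761 RPKM, naive libraries 0.610, 0.587 and 0.703, and input libraries 0.601, 0.701 and 0.681. Every threat library stood above all others, while place and naive libraries were near the input, with place 2 the highest of them. The means of 4.69 ± 0.622 (SD, n = 3) and 0.887 ± 0.592 (SD, n = 4) RPKM gave a ratio of 5.29. The log2 difference was 2.24 ± 0.21 (SE) as deposited and 2.10 ± 0.23 after scaling. The bin before it, chr13:98219001-98219500, showed the same separation, with 2.46, 3.33 and 3.01 RPKM in threat and 0.136, 1.06, 0.195 and 0.537 in place. Both bins were among those that met the member rule only through the threat libraries: the mean of place and naive libraries was 0.778 and 0.383 RPKM. Their calls are therefore given as a description, with no p. The bin after it held no read in any threat library and at most 0.0920 RPKM in a place library. Adjacent bins can hold reads of the same fragments, and how many they shared was not tested.

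A further bin of Wdr64, chr13:98283001-98283500, lay farther into the gene and was called on both scales. Threat libraries read 3.77, 6.15 and 5.92 RPKM there, place libraries 1.76, 2.44, 1.31 and 1.97, and naive libraries 1.83, 1.81 and 1.96. The groups did not overlap, and naive libraries lay inside the place range. The difference was 1.38 ± 0.18 (SE) as deposited (limma adjusted p = 1.79e-05) and 1.24 ± 0.17 after scaling (adjusted p = 0.000473). Of the 15 tested bins of the gene 3 were called. The mean over all 15 was 0.40 higher in threat after scaling and did not pass the threshold. That mean includes both bins nearer the start, which met the member rule only through threat, so it is a description, with no p. Wdr64 RNA was near zero, at 0.00245 FPKM in threat and 0.00101 in place, and was below the level needed for a test. At 24 h the bin nearer the start had a captured mean of 0.394 RPKM and was not a tested bin there. The bin farther into the gene passed as deposited in each of the 16 alternatives that tested it. After scaling it passed in 18 of 19, and was not called when the level threshold was 2 RPKM (adjusted p = 0.0727).

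Fam189a1, which encodes a membrane protein, held a pair of adjacent called bins in which place, not threat, stood apart from naive. In chr1:126867501-126868000, inside the gene, threat libraries read 3.32, 5.09 and 3.44 RPKM and place libraries 1.403, 1.196, 1.31 and 2.64. Naive libraries, at 3.66, 4.65 and 4.22 RPKM, were as high as threat. Input read 1.502, 1.03 and 1.48 RPKM, so 3 of the 4 place libraries were at the input level and place 4 above it. Place and naive libraries averaged 2.73 RPKM against an input mean of 1.34, so without threat the bin met the input rule only narrowly. Place libraries alone, with a mean of 1.64 RPKM, would not have met it. The difference was 1.19 ± 0.19 (SE) as deposited (limma adjusted p = 0.00181) and 1.05 ± 0.16 after scaling (adjusted p = 0.00353). It was lost when threat 2 was left out, with an adjusted p of 0.109 as deposited and 0.103 after scaling. After scaling the call was also lost with no input rule and with a level threshold of 2 RPKM. The gene's 85 tested bins averaged a scaled difference of 0.01, and its RNA was 7.96 ± 0.799 FPKM in threat (SD, n = 8) and 8.23 ± 0.926 in place (SD, n = 6).

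Myo3b, a myosin of sensory cells, had a bin at which the place libraries split. At chr3:63142001-63142500 threat libraries read 8.50, 6.29 and 5.54 RPKM and naive libraries 5.49, 4.36 and 3.97. Place 1 and place 4, at 3.802 and 4.16 RPKM, were close to naive, whereas place 2 and place 3, at 0.414 and 0.486, were at the input level of 0.508 ± 0.0865 (SD, n = 3). The difference was 2.01 ± 0.30 (SE) as deposited (limma adjusted p = 0.000575) and 1.88 ± 0.32 after scaling (adjusted p = 0.0228). In the bins just before and after the called bin, which were not tested, place 1 and place 4 also lay above place 2 and place 3. They read 0.724 and 0.358 against 0.184 and 0.195 RPKM before, and 0.679 and 0.985 against 0 and 0.0973 after. A captured bin 4000 nt before the called bin showed no such split, with 5.39, 4.32, 4.72 and 6.18 RPKM in place and 6.24, 7.07 and 5.68 in threat. The scaled call was lost without place 2, place 3, threat 1 or threat 2, with adjusted p-values of 0.164, 0.0566, 0.0734 and 0.0621.

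Bpi, which encodes a bactericidal protein of neutrophils, showed a pair of adjacent called bins. In chr3:160853001-160853500 threat libraries read 13.3, 14.7 and 10.98 RPKM, place libraries 8.15, 6.44, 6.56 and 5.64, and naive libraries 6.76, 10.1 and 9.64. The groups did not overlap, and naive libraries lay below all threat libraries, 1 inside the place range and 2 above it. The difference was 0.93 ± 0.16 (SE) as deposited (limma adjusted p = 0.00596) and 0.78 ± 0.13 after scaling (adjusted p = 0.0228), and without threat 2 it passed on neither scale (adjusted p = 0.129 as deposited and 0.199 after scaling). Without place 4 it was lost after scaling only (adjusted p = 0.0715). Bpi RNA was listed at 0 in both groups. On chromosome 2 the bin chr2:64764501-64765000, in no gene, was the highest of the bins called on both scales, with 29.4, 25.7 and 20.6 RPKM in threat, 11.9, 14.5, 9.68 and 13.3 in place and 8.49, 10.7 and 19.3 in naive libraries. Its difference was 1.02 as deposited (limma adjusted p = 0.00496) and 0.87 after scaling (adjusted p = 0.0358). As deposited it passed in 14 of 16 alternatives, but after scaling in 10 of 19, and there it was lost without place 1, place 3, threat 1 or threat 2.

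**Figure D3:**
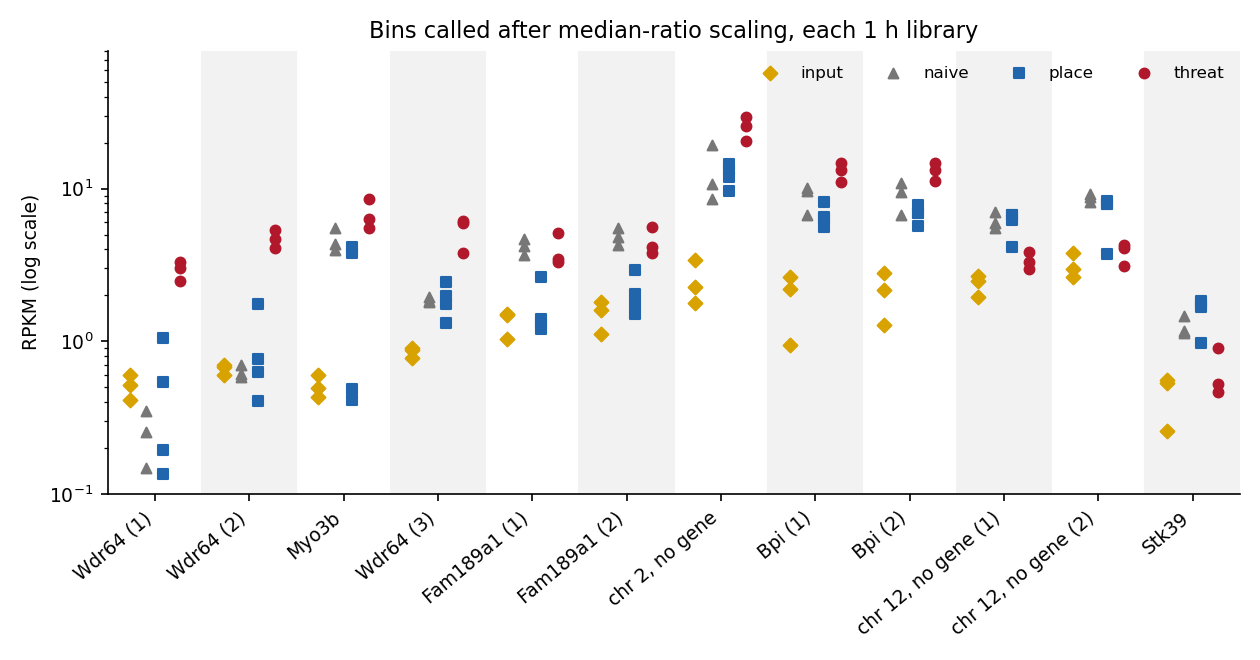
RPKM of each 1 h library (points, logarithmic vertical axis) in the 12 bins called after median-ratio scaling, ordered from the largest increase to the largest decrease in threat, with input, naive, place and threat side by side. In 11 of the 12 the scaled threat and place values do not overlap, and in the Myo3b bin place splits into 0.414 and 0.486 against 3.802 and 4.16.

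Stk39, a kinase that regulates cation and chloride cotransporters, held the only lower bin called on both scales. At chr3:60993501-60994000 threat libraries read 0.905, 0.462 and 0.525 RPKM, place libraries 1.67, 1.75, 0.973 and 1.84, and naive libraries 1.17, 1.13 and 1.46. All threat libraries were below all place and naive libraries. The difference was -1.04 ± 0.21 (SE) as deposited and -1.15 ± 0.20 after scaling. The mean of threat and naive libraries was 0.941 RPKM, so the bin met the member rule only through the place libraries, and its call is a description, with no p. The bin lay on the flank of a strong peak: the next bin read 10.2, 9.20 and 9.21 RPKM in threat and 13.4, 10.9, 9.53 and 14.995 in place, with a difference of -0.33 as deposited that did not pass (adjusted p = 0.484). The call was lost on both scales without place 1, place 2 or threat 2, as deposited also without threat 3 and after scaling also without place 4. Stk39 RNA was 17.9 ± 5.71 FPKM in threat (SD, n = 8) and 15.4 ± 1.84 in place (SD, n = 6; limma adjusted p = 1).

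Other lower bins lay outside genes. At chr12:48047001-48047500 threat libraries read 2.97, 3.28 and 3.87 RPKM, place libraries 6.74, 6.71, 4.13 and 6.22, and naive libraries 5.49, 7.05 and 5.98. Threat was the lowest group, and its libraries stood above the input of 2.66, 1.94 and 2.48. This bin was called after scaling (-0.90 ± 0.14, limma adjusted p = 0.0101) but not as deposited (-0.76, adjusted p = 0.0817), and was lost after scaling without place 1, place 2, threat 1 or threat 2. Its neighbour chr12:48045501-48046000 was also called after scaling (-0.91 ± 0.16, adjusted p = 0.0454), although place 3, at 3.74 RPKM, lay within the threat range of 3.12 to 4.30. That call held in 6 of 18 alternatives and was lost without place 1, place 2, place 4, threat 1 or threat 2. Input there read 3.78, 2.97 and 2.64 RPKM, which overlapped threat. Without the place libraries both bins met the input rule only narrowly. Threat and naive libraries averaged 6.29 RPKM there against an input mean of 3.13, and 4.77 against 2.36 in chr12:48047001-48047500. Near the olfactory receptor genes Olr1680 and Olr1681 the bin chr20:490001-490500 was called as deposited only. It read 0.704, 0.462 and 0.764 RPKM in threat and 1.90, 1.56, 1.41 and 1.84 in place, and 2.08, 1.32 and 0.653 in naive libraries, which covered both groups. Like the Stk39 bin, it met the member rule only through the place libraries, with a mean of 0.998 RPKM in threat and naive. It was not called without place 1, place 2, threat 1 or threat 2. The bin chr1:131550501-131551000, in no gene, had the next lowest scaled p among lower bins, at an adjusted p of 0.0593.

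**Figure D4:**
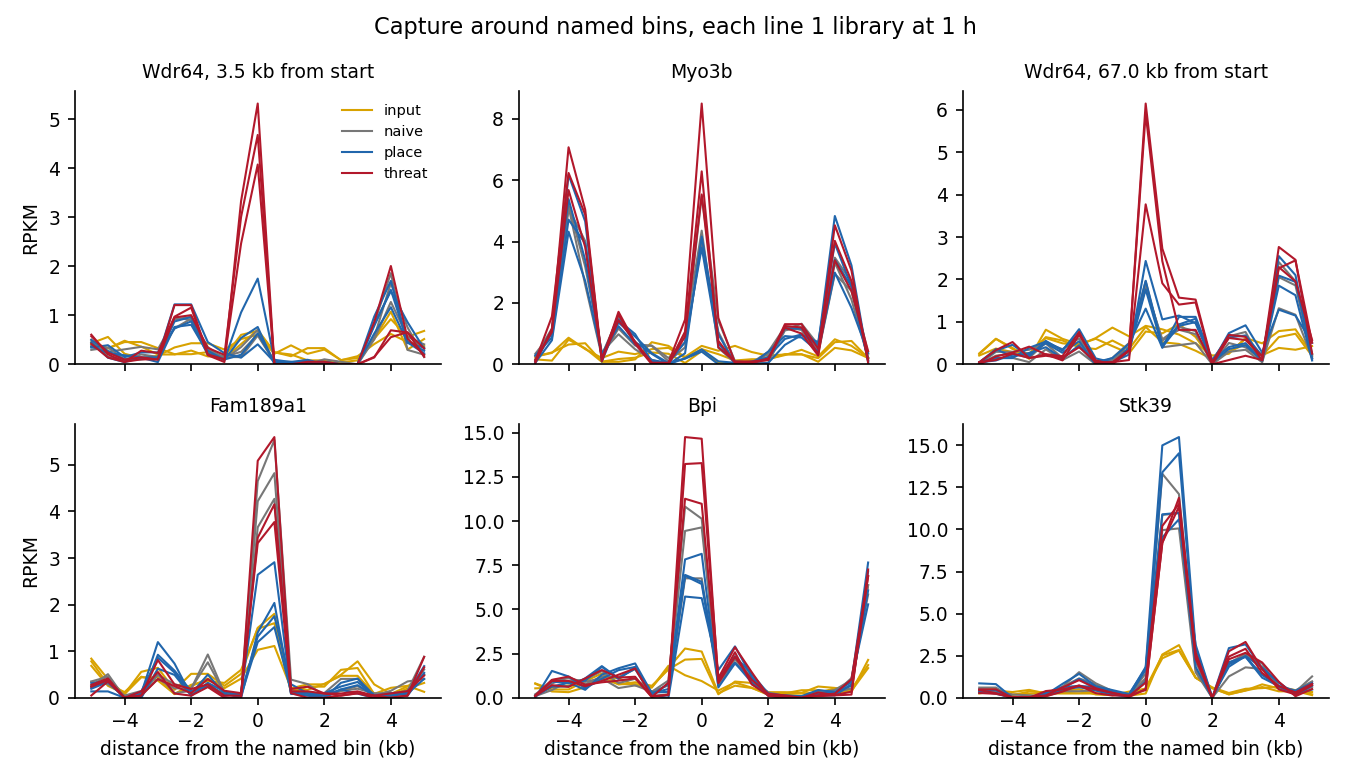
RPKM (vertical axis) in each 500-nt bin against the distance in kb from the named bin (horizontal axis), with 1 line for each 1 h library of input, naive, place and threat, at 5 bins higher and 1 lower in threat. Threat lines stand above all others at both Wdr64 places, naive lines run with threat at Fam189a1, and the Stk39 bin is the flank of a peak of over 9 RPKM.

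Of the bins called as deposited, 24 lay in 4 places with high input, on chromosomes 1, 5, 14 and 19, grouped after their values were seen. The input mean of the called bins was above 3 RPKM in each place. The largest, chr14:46812001-46864000, held 16 called bins of 75 tested, 9 of them in ENSRNOG00000049138, the gene with the most called bins. Its called bins averaged 22.4, 18.7 and 11.9 RPKM in threat, 7.04, 8.87, 12.4 and 9.87 in place and 14.9, 16.2 and 15.6 in naive libraries. Naive lay between threat 1 and threat 3, and place 3 above threat 3. The order of the libraries was much the same in the other places: threat 1 was highest, then threat 2, and place 1 was lowest in all 4. On chromosome 5 the means were 27.6, 23.4 and 13.8 RPKM in threat and 8.52, 10.98, 13.97 and 11.9 in place. No bin of these places was called after scaling, which leaves 34 higher and 3 lower calls as deposited outside them.

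The same 4 places also varied within groups at 24 h. The called bins on chromosome 14 averaged 1.55, 5.74 and 10.02 RPKM in the 24 h threat libraries, and 3.55, 4.47, 3.36 and 2.20 in the place libraries of that time. On chromosome 1 the 24 h threat values were 2.10, 8.47 and 14.6 RPKM. In both places threat 3 was highest and threat 1 lowest at 24 h. The gene on chromosome 1, ENSRNOG00000047746, had RNA at 181 ± 31.4 FPKM in threat (SD, n = 8) and 241 ± 71.0 in place (SD, n = 6), a log2 difference of -0.39 that did not pass (limma adjusted p = 1). What these places have in common was not tested.

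**Figure D5:**
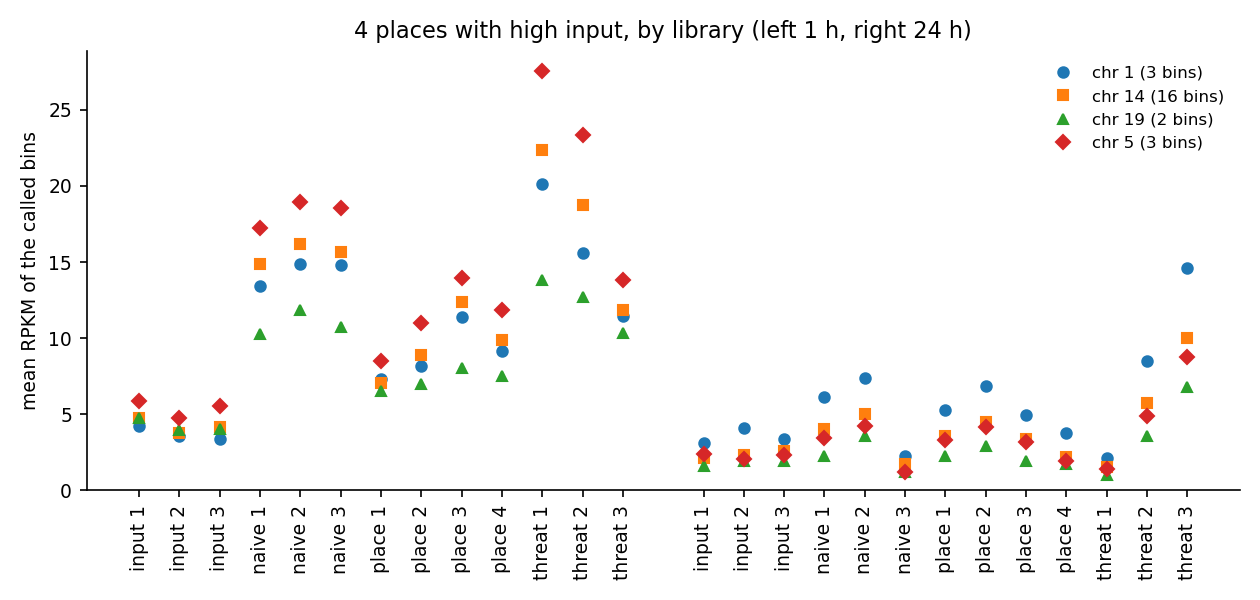
Mean RPKM of the called bins (vertical axis) in the 4 places with high input, for each library at 1 h (left) and 24 h (right), with 1 marker shape for each place. The markers move together from library to library, with 1 h threat on chromosome 14 at 11.9 to 22.4 RPKM and 24 h threat at 1.55 to 10.02.

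Several further genes held bins called only as deposited. Tmem39b, whose start is printed above, rose over the start itself: the bin chr5:151634501-151635000 read 2.87, 3.70 and 3.63 RPKM in threat and 2.31, 1.43, 1.65 and 1.57 in place, with naive at 1.22, 1.62 and 2.21. The groups did not overlap, and the difference was 0.89 ± 0.18 (SE; limma adjusted p = 0.0475) as deposited and 0.75 after scaling (adjusted p = 0.203). The call held in 9 of 16 alternatives, and in 2 of the 7 that left out a library (without place 1 or place 4). Its RNA was 3.03 ± 0.214 FPKM in threat (SD, n = 8) and 2.77 ± 0.121 in place (SD, n = 6; limma adjusted p = 1). Notch4, a Notch receptor of blood vessels, read 10.3, 13.7 and 9.50 RPKM in threat and 2.81, 7.31, 3.50 and 8.55 in place at chr20:6415001-6415500. Naive libraries there, at 2.95, 2.89 and 2.61, were near the lower pair of place libraries, and the difference was 1.10 as deposited (adjusted p = 0.0116) and 0.96 after scaling (adjusted p = 0.0957). In the next bin, chr20:6415501-6416000, the groups overlapped, with 13.8, 19.98 and 11.4 RPKM in threat and 3.62, 10.8, 3.89 and 13.4 in place (1.09 as deposited, adjusted p = 0.0467; 0.94 after scaling, adjusted p = 0.285). The Notch4 calls held in 11 of 15 and 9 of 16 alternatives, and both were lost without place 1, place 3 or threat 2. Erich2 read 11.9, 10.1 and 11.8 RPKM in threat and 5.34, 2.99, 7.59 and 7.21 in place at chr3:63452001-63452500 (1.011 as deposited, adjusted p = 0.0096; 0.87 after scaling, adjusted p = 0.0529), and was not called without place 2 or threat 1. Single bins were also called in Stx8, an endosomal SNARE protein gene (1.17), Clmp, a cell adhesion gene (1.21, in a bin that met the member rule only through threat), Kynu, the kynureninase gene (0.97), and Nuf2, a kinetochore gene (0.81). None of these 4 passed after scaling. As deposited they held in 2 (Nuf2) to 6 (Stx8) of the 7 alternatives that left out a library.

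Averaged over genes, no difference passed. Gene bodies were tested as the mean of at least 3 tested bins, which left 10751 genes, and limma called 0 on either scale (0% of those tested). At an unadjusted p under 0.05 there were 1494 as deposited and 670 after scaling. Wdr64, whose mean includes bins that met the member rule only through threat, is left out of the order of p-values here. The bins of the other genes were not examined for this. Of all tested bins 4.19% failed the rule without threat and 2.88% without place. The lowest scaled p-values of other higher genes belonged to Sema6a, an axon guidance gene (0.28 ± 0.06, SE), and Sptlc3, a subunit of the enzyme that starts sphingolipid synthesis (0.31). Hexdc, a hexosaminidase (0.29), Trim47, a ubiquitin ligase (0.29), and Cacfd1 (0.22) followed. Sema6a levels were 2.27, 2.23 and 2.01 in threat and 1.69, 1.62, 1.69 and 1.99 in place on the log2 scale. Among lower genes the lowest scaled p-values belonged to Ccdc173 (-0.51 ± 0.10), Sult1c2a, a sulfotransferase (-0.47), Itgad, an integrin subunit (-0.20), Sh3yl1 (-0.32), Krtap9-1, a hair keratin-associated gene (-0.25), and BC049635 (-0.42). Ccdc173 levels were 1.45, 1.25 and 1.55 in threat and 1.91, 1.69, 1.67 and 1.91 in place. Each of these higher and lower genes, Wdr64 aside, had an adjusted p of 0.732 after scaling. Without threat 3, 259 gene bodies passed as deposited and 0 after scaling.

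Gene starts gave the same count. A window of 1 kb to each side was tested at 1567 starts, and limma called 0 on either scale (0% of those tested), with 237 at an unadjusted p under 0.05 as deposited and 117 after scaling. The higher starts of lowest scaled p were those of Krtap4-16 (0.37 ± 0.10, SE), Ppcdc, an enzyme of coenzyme A synthesis (0.78), ENSRNOG00000049138 (0.60), Enpep (0.38) and Kcnk16 (0.30). Kcnk16 levels were 1.93, 1.86 and 1.77 in threat and 1.38, 1.44, 1.33 and 1.51 in place on the log2 scale, which did not overlap. Enpep levels were 1.16, 0.94 and 0.73 in threat and 0.65, 0.28, 0.22 and 0.60 in place. Lower starts of lowest scaled p with a symbol were Krt27, a hair follicle keratin (-0.33), and Lemd2, an inner nuclear membrane protein gene (-0.34). The adjusted p of the 10 starts was 0.605 or 0.635 after scaling. Without threat 3, 119 starts passed as deposited and 0 after scaling. By CG content the starts hardly differed: of the 742 starts matched to a RefSeq promoter, those with 0 to 2 CG pairs in the 250 bases had a median scaled difference of 0.03, and those with 12 or more also 0.03. At least 12 CG pairs were found in 31.1% of the matched captured starts and in 33.9% of all promoters. The class of 0 to 2 CG pairs held 14.6% of the matched captured starts and 27.6% of all promoters.

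No bin called on either scale lay in any of 27 gene lists, which together held 9523 tested bins, 2.72% of all. Immediate early transcription factors, which neurons switch on within minutes of activity, held 50 tested bins with a median scaled difference of 0.04. Their 7 tested gene bodies had a median of 0.10, against 0.00 over all 10751, and 5 were above zero. That median was 0.03 without place 2 and 0.04 without place 4. Nr4a3 had a scaled difference of 0.15 (limma adjusted p = 0.8) and Atf3 one of 0.12 (0.847). Genes studied for methylation in memory held 469 bins, 217 of them in Reln, with a median of -0.05, of which 37.5% were above zero, against 49.9% of all tested bins, and 3 of their 13 gene bodies were above zero. Bdnf, a neuronal growth factor, had a scaled difference of -0.11 ± 0.06 (SE, adjusted p = 0.83) over 7 bins, and the glutamate receptor subunit Grin2a -0.09 (0.84) over 61 bins. As deposited both were slightly above zero, at 0.03 and 0.04. Among effectors induced by activity the lowest p-values were those of Lmna (0.18, adjusted p = 0.732) and Plk3 (0.25, 0.732). The methylation machinery list, 15 gene bodies with a median of -0.01, was led by Mbd2, itself a methyl-binding protein (-0.21, adjusted p = 0.786), and Zbtb38 (0.17, 0.786).

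Synaptic lists lay close to zero after scaling. Medians over gene bodies were 0.02 for 16 ionotropic glutamate receptors, 0.05 for 8 metabotropic receptors, 0.01 for 18 GABA genes, -0.01 for 30 postsynaptic scaffold and kinase genes, 0.00 for 27 presynaptic genes and -0.02 for 52 adhesion and guidance genes. Scn2a1, a sodium channel, had a scaled difference of -0.19 and the adhesion gene Nlgn1 one of -0.17, with adjusted p-values of 0.732. Imprinted genes, whose parental copies differ in methylation, had a median of 0.02 over 24 bodies, and 33 protocadherins one of 0.05. Of the Hox genes no bin was tested. Among cell type markers the medians over bins were 0.05 for oligodendrocyte (84 bins), 0.05 for microglia (60 bins), -0.04 for GABAergic interneuron (333 bins, or -0.01 for the 116 outside Reln), -0.01 for astrocyte (147 bins), 0.00 for CA1 pyramidal (161 bins) and -0.02 for choroid plexus genes (84 bins). Rgs5, a pericyte gene, had the lowest p among marker gene bodies above zero (0.28, adjusted p = 0.732), and Folr1, a choroid plexus gene, among those below (-0.29, 0.732).

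Most called bins could not be followed to 24 h. Of the 350378 bins, 73982 were also tested at 24 h, but only 6 of the 63 called bins were. The 5 higher ones were a bin in Nuf2 and bins of the high-input place on chromosome 14. Called bins of that place averaged 1.55, 5.74 and 10.02 RPKM in the 24 h threat libraries. In all 5 the threat mean was above place at 24 h too as deposited, where 96.5% of the bins tested at both times had that sign. Their median 24 h difference was 0.48 as deposited and 0.20 after scaling, against 0.29 and 0.01 over all bins. None passed at 24 h (lowest adjusted p = 0.15). A test of the difference between the times over the 73982 bins, with limma, called 0 (0%), with 4897 at an unadjusted p under 0.05 as deposited and 3131 after scaling. Without the 1 h library of threat 2 it called 7 bins, and without the 24 h library of threat 3 it called 9. At 24 h another set of bins, 85335 in number, met the same rule on the libraries of that time. The share of reads in that set was 11.97% ± 0.716 in threat (SD, n = 3) and 9.72% ± 0.489 in place (SD, n = 4). The groups did not overlap, and the exact permutation p was 0.0571, the smallest possible. The 24 h input libraries held 2.91% to 3.02% of their reads there. Because the sets differ, these shares cannot be set against those of 1 h.

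RNA, measured in other samples, showed no gene past the threshold between threat and place at 1 h: of 13153 genes tested with limma, 0 passed (0%), and the unadjusted p was under 0.05 for 560. Of the 14 genes that held a called bin, 9 had RNA levels that could be tested. Their log2 differences ran from -0.39 for ENSRNOG00000047746 to 0.17 for Erich2, each with an adjusted p of 1.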

How the data were processed

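DNA captured with a methyl-binding domain kit was sequenced, per the labels' protocols. The authors deposited a signal in RPKM for each bin of 500 nt, and FPKM per gene for RNA. TopHat 1.4.0, Bowtie, mm10 and rn5 appear in the submitters' processing notes, without roles, as do edgeR and DESeq2. Bins end at 290094216 on chromosome 1, as in rn5, although the table's title names a mouse build. A total of 53 mitochondrial or shorter bins were left out. Values were whole multiples of 1 read (100% within 0.1 read), so reads could be recovered for edgeR 4.0.16 and DESeq2 1.42.0.

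limma 3.58.1 with trend was fitted to log2(RPKM + 0.25) of the 10 captured 1 h libraries with 3 group means, and to log2(FPKM + 1) for RNA, for genes of at least 1 FPKM in 5 libraries. The fit was run on simulated counts with known changes and equal capture in every library, so differences in capture between libraries were not covered. These scales understate differences of low bins, and reads without molecular identifiers are not independent molecules. Members and gene lists were chosen with earlier results of these data known; 579 of 600 listed symbols were found, 8 by a synonym. Named bins were called on both scales without overlap: the 6 largest scaled differences in each direction in or within 5 kb of a gene with a symbol and the 3 largest anywhere, 1 for each run of called bins, or the 5 lowest scaled p in a direction with fewer than 5. Gene bodies (6 in each direction), starts (5) and up to 2 members of a list were named by lowest scaled p, and genes by their called bins. Tmem39b, Notch4, Erich2, Stx8, Clmp, Kynu, Nuf2, the bin on chromosome 2 and the 4 high-input places were chosen after their values were seen.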

Additional observations from a re-analysis of the deposited data

Results flagged for a closer look

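Among 35 sets of 4 place libraries, 3 held a library whose gap to the nearest of the others took up most of the range of the set (Dixon's criterion). Chance flags about 1 in 20 such groups. Place 4 read 2.641 RPKM in the Fam189a1 bin, and the next highest place library 1.403. Place 3 read 3.74 RPKM in the bin at chr12:48045501-48046000, and the next lowest 7.92. At the start of Ppcdc, an enzyme of coenzyme A synthesis, place 4 had a level of -0.50 on the log2 scale and the next lowest 0.67. Without place 4 the scaled difference of that start was 0.42, against 0.78 with it.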

How the results depend on the processing

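Counts of called bins moved with the processing. No named bin turned its direction, but these bins were chosen by separation of the groups or low p, which largely fixed that outcome. As deposited, 61 became 129 with a pseudocount of 1, 95 at 2 RPKM, 96 at 4 times the input, 128 with only threat and place libraries, 5076 with array weights, 136 with edgeR, 9 with no input rule, 19 in bins of 1 kb, and 27 where input was at most 1 RPKM (chosen after seeing the data). After scaling, 12 became 31, 0 (limma, 7212 at an unadjusted p under 0.05), 11, 17, 109, 38 (edgeR, TMM), 6, 2 and 10 in that order, 7 with quantile normalization, 44 with scaling on bins outside the tested set and 4 with DESeq2. Leaving out 1 library gave 27 to 456 as deposited and 13 to 349 after scaling. It gave 0 to 259 gene bodies, 0 to 119 starts and 0 to 9 bins of the time difference, and 1 start passed without place 1 or place 2. With at least 10 bins 2 gene bodies passed, and with a window of 2 kb 1 start did, both as deposited. Replicate numbers did not pair the libraries (correlations of -0.069, -0.018 and -0.0015); with a replicate block 302 bins passed as deposited, 48 after scaling, 14 gene bodies as deposited and 0 after scaling, 0 starts and 4 bins of the time difference. Of the 61 bins 14 were kept without threat 2 and 56 without threat 3. The share of reads differed by 4.34 to 8.28 points. The causes were not tested. Depth limits single bins: the median tested bin held 31 to 41 reads.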
